A study of Mus musculus with 9 samples.

Results

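Interleukin-1 beta, its signalling receptor and 8 inflammatory chemokines were followed here in FRCs (fibroblastic reticular cells), the mesenchymal cells that build the scaffold of lymph nodes. The members were taken by gene symbol: Il1b, Il1r1, Ccl2, Ccl4, Ccl7, Ccl8, Ccl9, Ccl11, Cxcl1 and Cxcl5. Of these 10 genes, 9 had a named probe, out of 19057 gene symbols on the array, and they were read by 13 probes. Cxcl5 had no named probe and was not analysed here. The cells came from female C57BL/6 mice, and all groups shared that strain, sex and tissue. The 9 arrays fell into 3 groups of 3: FRCs of tumour-draining nodes at day 4, FRCs of tumour-draining nodes at day 11, and FRCs of nodes draining a PBS injection site. For each array, FRCs from the 2 brachial nodes of 1 animal were pooled. The tumour, the age of the mice, the day of the PBS nodes and the way the cells were isolated are not given in the sources used here. Because the PBS nodes carry no day, tumour drainage and elapsed time cannot be told apart, and the same PBS arrays serve both tumour comparisons.

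Interleukin-1 beta is a pro-inflammatory cytokine made mainly by monocytes, macrophages and neutrophils as an inactive precursor, which caspase-1 cuts in the inflammasome. The active cytokine binds Il1r1 together with the accessory chain Il1rap and signals through Myd88, Irak kinases and Traf6 to NF-kB, which in fibroblasts turns on chemokine genes. Of the chemokines, Ccl2, Ccl7 and Ccl8 draw monocytes, Ccl11 (eotaxin) draws eosinophils, Ccl4 and Ccl9 draw several leukocyte types, and Cxcl1 and Cxcl5 draw neutrophils.

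RefSeq windows running from 250 bases before to 50 bases after the annotated gene start (build GRCm38.p6) were held for 5 of the 10 genes. Those of Il1b and Cxcl1 are shown because Il1b is the cytokine of the set, with its day 4 arrays apart from all others, and Cxcl1 was among the brightest probes of every array. The Il1b window lies on the minus strand of chr2:129371090-129371389 and the Cxcl1 window on the plus strand of chr5:90890995-90891294, both printed 5′ to 3′. Capitals mark matches on either strand to TATAAA, the core of a TATA box, or to GGNNTTTCC, which is part of a common form of NF-kB site. The matches to these motifs did not overlap each other in either window.
Il1b: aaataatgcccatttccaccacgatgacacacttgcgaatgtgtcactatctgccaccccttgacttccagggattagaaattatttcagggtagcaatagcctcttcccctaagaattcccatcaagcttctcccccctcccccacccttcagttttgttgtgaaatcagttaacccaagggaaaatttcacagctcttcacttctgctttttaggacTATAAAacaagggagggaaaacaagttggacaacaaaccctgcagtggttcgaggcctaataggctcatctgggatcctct
Cxcl1: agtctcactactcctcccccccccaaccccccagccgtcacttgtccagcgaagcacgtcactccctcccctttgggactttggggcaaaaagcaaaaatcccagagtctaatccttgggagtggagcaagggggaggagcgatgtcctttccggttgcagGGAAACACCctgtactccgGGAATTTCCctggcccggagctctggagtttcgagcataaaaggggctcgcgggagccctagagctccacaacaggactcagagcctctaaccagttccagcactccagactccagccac
The Il1b window held 1 TATAAA at positions -31 to -26 from the start and no GGNNTTTCC. The Cxcl1 window held 2 matches to GGNNTTTCC, at positions -89 to -81 and -70 to -62, and no TATAAA. Among the 32851 RefSeq windows of this length, 5.82% held GGNNTTTCC and 13.6% held TATAAA. The Ccl9 window held a match to GGNNTTTCC as well, and those of Ccl8 and Il1r1 held none. These are matches of letters, and binding was not measured. On chromosome 11, Ccl2, Ccl7 and Ccl11 follow each other directly among the protein-coding genes, with Ccl12 between Ccl11 and Ccl8, while Ccl9 and Ccl4 lie apart from them beside Ccl6 and Ccl3.

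A probe was called detected on an array when its detection p-value, its standing against negative control beads, was under 0.01. Of the 13 member probes, 9 were detected on all 9 arrays, and these read the 6 genes Il1r1, Ccl2, Ccl7, Ccl9, Ccl11 and Cxcl1. The Il1b probe was detected on 2 of 3 arrays at day 4, 3 of 3 at day 11 and 3 of 3 in PBS. One Ccl4 probe was detected on 0 of 3, 2 of 3 and 3 of 3 arrays in the same order of groups, and the second Ccl4 probe and the Ccl8 probe on no array. A probe entered the statistical fit when it was detected on at least 3 of the 9 arrays. That left 11 member probes of 8 genes among 16577 tested probes. The Ccl4 probe met this filter through the day 11 and PBS arrays alone.

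Across the arrays, between 9606 and 17627 of 45281 probes were detected, the fewest on day 11 replicate 3, where the dimmest detected probe also had the highest level of the 9 arrays, 6.88 on the log2 scale used below. Of the 18 FRC markers with a probe, 16 to 18 were detected on each array, including Pdpn, Pdgfra, Ccl19 and Ccl21a on all of them. Ptprc, the pan-leukocyte surface marker, was also detected on all 9 arrays. Levels below are log2 intensities after background correction and quantile normalization between arrays, and a change is a difference of group means on that scale. Probes bind with different strength, so levels are compared between samples and not between genes.

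No member passed the threshold of an adjusted p under 0.05 over all tested probes (limma) in any comparison. At day 4 against PBS this was 0 of 11 member probes, beside 0.00% of all tested probes, and 3 of 11, those of Il1b and Ccl4 and the dimmer of Ccl7, had an unadjusted p under 0.05, beside 7.89% of all. At day 11 against PBS it was 0 of 11, beside 0.00603% of all, and 0 of 11 had an unadjusted p under 0.05, beside 10.4% of all. At day 11 against day 4 it was 0 of 11, again beside 0.00603% of all, and 2 of 11, Il1b and Ccl4, had an unadjusted p under 0.05, beside 6.65% of all. The estimates of these genes at day 4 against PBS were the most negative of the 11, as the plot of changes by probe shows. With 3 arrays against 3, an exact permutation test of a single gene cannot go below p = 0.1. The counts that hold Ccl4 include a probe that met the detection filter through day 11 and PBS arrays alone. The members were also chosen with earlier results of these data known, so no enrichment is read from these counts.

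**Figure D1:**
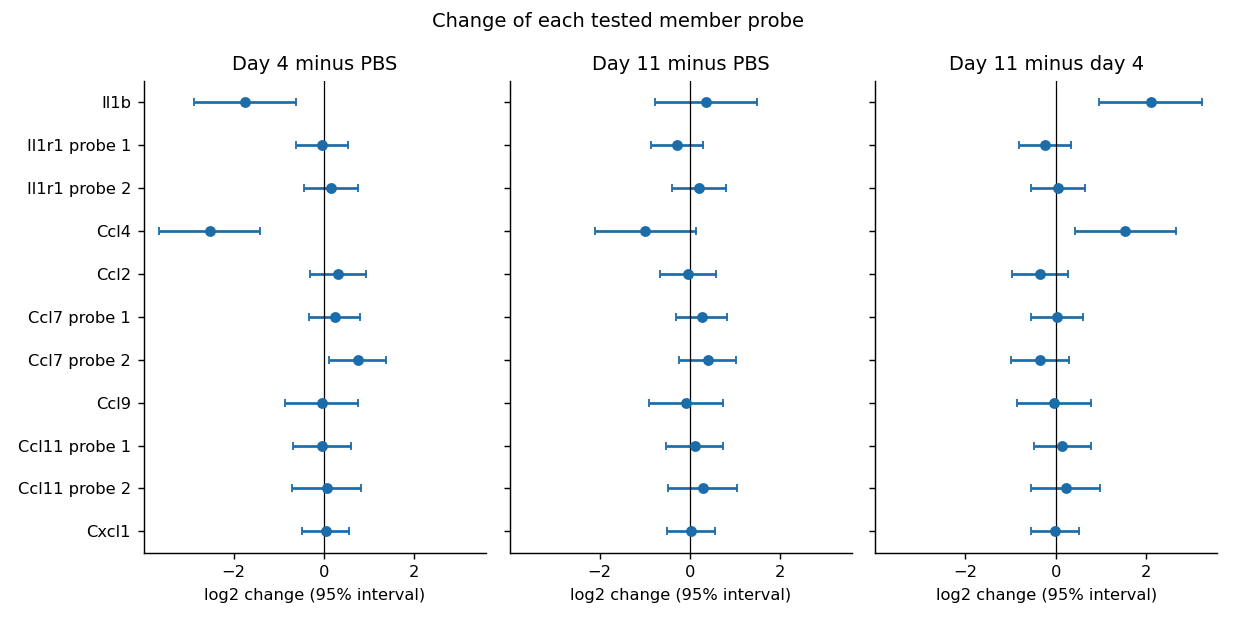
Log2 change of each of the 11 tested member probes (rows) in the 3 comparisons (panels), with limma's 95% interval; probe 1 is the brighter probe of a gene. The intervals of Il1b and Ccl4 lie below 0 for day 4 minus PBS and above 0 for day 11 minus day 4. They are unadjusted for the number of probes tested. Ccl4 was detected on no day 4 array, so these intervals of Ccl4 rest on background signals there. Most other intervals span 0.

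The ligand Il1b had log2 levels of 6.32, 6.98 and 4.76 on the day 4 arrays, 7.96, 8.16 and 8.26 on the day 11 arrays, and 7.61, 8.31 and 7.39 on the PBS arrays. All 3 day 4 arrays lay below all 6 others, and the day 11 and PBS values overlapped. The raw intensities were 137, 215 and 85.9 at day 4, 327, 385 and 421 at day 11, and 226, 387 and 246 in PBS. The lowest of them, on day 4 replicate 3, was from the array on which Il1b was not detected. The mean was 6.02 ± 1.14 at day 4, 8.12 ± 0.15 at day 11 and 7.77 ± 0.48 in PBS (SD, n = 3 each). The change at day 4 was -1.75 ± 0.51 (SE; 95% interval -2.88 to -0.62; limma adjusted p = 0.454), which is a level 0.297 times that of PBS. Leaving out day 4 replicate 3 gave -1.12, and no other single array moved it as far towards 0. From day 4 to day 11 the change was 2.10 ± 0.51 (95% interval 0.97 to 3.24; limma adjusted p = 0.550), or 1.48 without day 4 replicate 3. At day 11 the change from PBS was 0.35 ± 0.51 (95% interval -0.78 to 1.49; limma adjusted p = 0.835). In such bulk samples, fewer cells that carry a transcript and less of it per cell cannot be told apart.

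The chemokine Ccl4, which macrophages and activated T cells make, had log2 levels of 4.74, 4.76 and 4.64 at day 4, 6.57, 6.83 and 5.36 at day 11, and 6.67, 8.33 and 6.72 in PBS. Again all day 4 arrays were below all others, and none of them detected the probe. PBS replicate 2 was the highest of the 9 by a wide margin, and day 11 replicate 3 was the lowest of the arrays outside day 4 and did not detect the probe either. Raw intensities were 67.7, 83.5 and 77.0 at day 4, 189, 206 and 161 at day 11, and 144, 391 and 182 in PBS. Since day 4 gives only an upper limit, bounds on the group means were taken. The PBS mean was at least 2.78-fold over day 4, raised by PBS replicate 2. For day 11 the figure was 1.41-fold, but its mean includes replicate 3, undetected at 5.36, so it is no firm minimum. Neither figure allows for the spread between arrays. The normalized change at day 4 was -2.53 (limma adjusted p = 0.285), or -1.96 without PBS replicate 2. From day 4 to day 11 it was 1.54 (limma adjusted p = 0.664). These bounds set the bright group's mean against the lowest signal among detected probes on each dim array, or the probe's own signal if higher. The normalized means were 4.71 ± 0.06 at day 4, 6.25 ± 0.79 at day 11 and 7.24 ± 0.94 in PBS (SD, n = 3 each). The day 4 mean and its small SD describe background signals and not a measured Ccl4 level. At day 11 the change from PBS was -0.98 ± 0.50 (95% interval -2.11 to 0.14; limma adjusted p = 0.517). Leaving out the high PBS replicate 2 gave -0.43 for this change, and leaving out the low day 11 replicate 3 gave -0.54. The second Ccl4 probe, not well above background on any array, had raw intensities from 74.5 to 127.

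Groups that did not overlap were counted beside the share of all tested probes with the same property. As above, Ccl4 met the detection filter without any day 4 array, and the members were chosen with earlier results known. The shares are given as background and make no test of the members. At day 4, 2 of 11 member probes lay wholly below PBS, those of Il1b and Ccl4, beside 4.37% of all. 1 of 11 lay wholly above PBS, the dimmer Ccl7 probe, beside 6.04% of all. At day 11, 2 of 11 lay wholly above PBS, both Ccl7 probes, beside 10.1% of all, and 1 of 11 wholly below, an Il1r1 probe, beside 7.66%. Between the tumour groups, Il1b and Ccl4 lay wholly higher at day 11 than at day 4, 2 of 11 beside 7.36% of all, and 0 of 11 lay wholly lower, beside 7.50%. The separations of Il1b and Ccl4 were also present with no background correction, with 75th percentile scaling and in the authors' processed values.

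**Figure D2:**
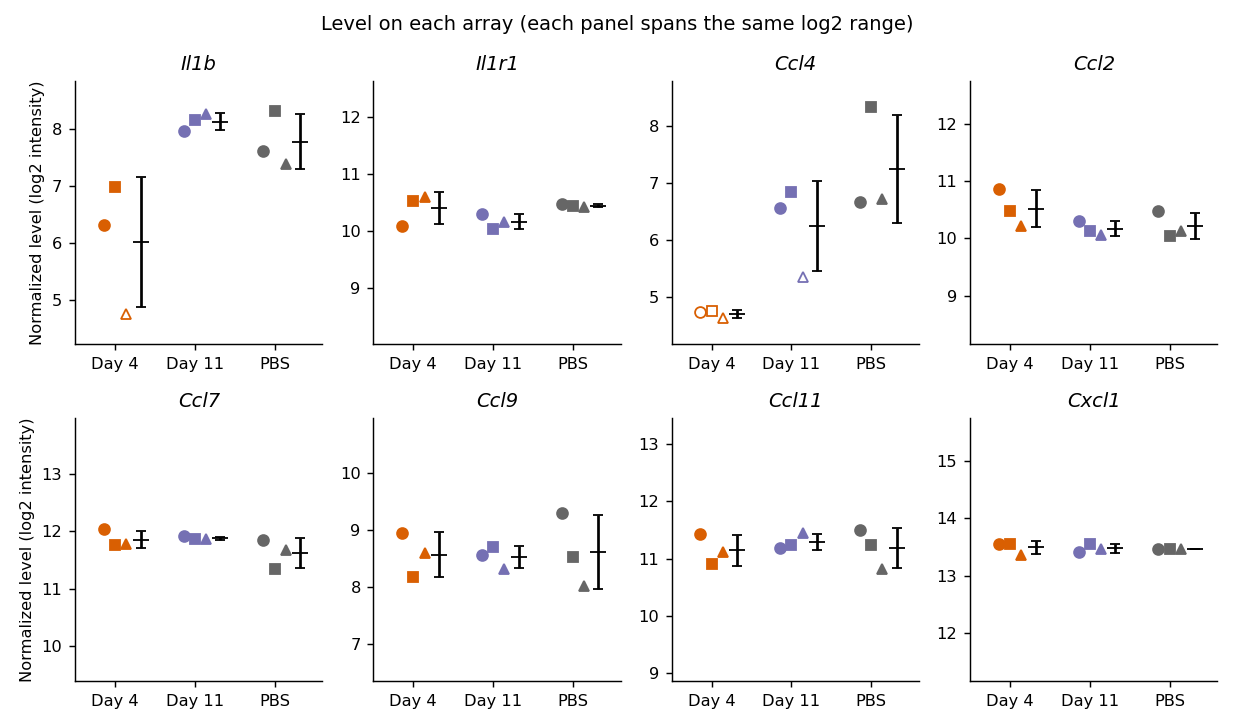
Normalized log2 level of each tested gene's brighter probe on the 9 arrays, with day 4, day 11 and PBS from left to right and the mean ± SD (n = 3) as a bar; circles, squares and triangles are replicates 1, 2 and 3, and open symbols mark arrays on which the probe was not detected. The day 4 points of Il1b and Ccl4 lie below the day 11 and PBS points of the same panel; the Cxcl1 points lie close together on a scale that ties the brightest probes to their ranks.

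The receptor gene Il1r1 was detected on every array by both of its probes. Its brighter probe had log2 levels of 10.09, 10.53 and 10.60 at day 4, 10.29, 10.04 and 10.16 at day 11, and 10.48, 10.43 and 10.43 in PBS. The day 11 arrays lay below the PBS arrays, which lay close together, and the day 4 arrays spread across both. For this probe the change at day 4 was -0.04 ± 0.26 (95% interval -0.61 to 0.54; limma adjusted p = 0.984), and that at day 11 was -0.28 ± 0.26 (95% interval -0.85 to 0.29; limma adjusted p = 0.724). The dimmer probe had changes of 0.16 ± 0.27 at day 4 and 0.20 ± 0.27 at day 11, so the 2 probes differed in sign at both times and gave no common direction.

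Ccl2, the main monocyte attractant of the group, had log2 levels of 10.86, 10.49 and 10.22 at day 4, 10.31, 10.13 and 10.07 at day 11, and 10.48, 10.04 and 10.13 in PBS. Day 4 replicate 1 was the highest array, and the groups overlapped in every comparison. The changes from PBS were 0.30 ± 0.28 at day 4 (95% interval -0.31 to 0.92; limma adjusted p = 0.851) and -0.05 ± 0.28 at day 11 (95% interval -0.67 to 0.57; limma adjusted p = 0.961).

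Ccl7, its neighbour on chromosome 11 and also a monocyte attractant, was read by a pair of probes detected on all arrays. The brighter probe had 12.04, 11.77 and 11.77 at day 4, 11.91, 11.87 and 11.87 at day 11, and 11.85, 11.34 and 11.68 in PBS. The dimmer probe had 10.17, 9.36 and 9.64 at day 4, 9.48, 9.34 and 9.33 at day 11, and 9.08, 8.79 and 9.08 in PBS. On the dimmer probe all 6 tumour arrays lay above all PBS arrays. On the brighter probe PBS replicate 1 reached into the day 4 range, and the day 11 arrays stood above PBS by a narrow margin that was lost with 75th percentile scaling. The dimmer probe gave a change of 0.74 ± 0.28 at day 4 (95% interval 0.11 to 1.38; limma adjusted p = 0.562) and 0.40 ± 0.28 at day 11 (95% interval -0.24 to 1.03; limma adjusted p = 0.643). The brighter probe gave smaller changes of the same sign, 0.24 ± 0.26 at day 4 (limma adjusted p = 0.873) and 0.26 ± 0.26 at day 11 (limma adjusted p = 0.745).

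Ccl8, the remaining monocyte attractant, was not well above background on any array. Its raw intensities were 93.3, 89.2 and 99.4 at day 4, 127, 120 and 146 at day 11, and 99.2, 77.3 and 110 in PBS, and no fold is given. Array medians over all probes were likewise higher at day 11, at 115 to 151, against 91.4 to 103 in PBS, so the raw values of Ccl8 and of probes at large differed in the same direction.

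Ccl9, made by myeloid cells and others in mice, had log2 levels of 8.95, 8.17 and 8.59 at day 4, 8.56, 8.70 and 8.32 at day 11, and 9.30, 8.53 and 8.02 in PBS. The PBS arrays alone spanned more than the day 4 or day 11 arrays did. Its changes from PBS were -0.05 ± 0.37 at day 4 (95% interval -0.86 to 0.77; limma adjusted p = 0.986) and -0.09 ± 0.37 at day 11 (95% interval -0.90 to 0.73; limma adjusted p = 0.945).

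Ccl11, the eosinophil attractant, had log2 levels on its brighter probe of 11.43, 10.90 and 11.11 at day 4, 11.19, 11.24 and 11.44 at day 11, and 11.50, 11.23 and 10.82 in PBS. The 3 groups overlapped. Its changes were -0.04 ± 0.29 at day 4 (95% interval -0.67 to 0.60; limma adjusted p = 0.985) and 0.11 ± 0.29 at day 11 (95% interval -0.53 to 0.74; limma adjusted p = 0.916). The dimmer probe gave 0.07 ± 0.34 and 0.29 ± 0.34 in the same order.

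Cxcl1, a neutrophil attractant that fibroblasts make on stimulation, had raw intensities of 12514, 14311 and 9717 at day 4, 11781, 13102 and 12224 at day 11, and 10043, 10257 and 11076 in PBS. Its probe was the 4th to 7th brightest of the 45281 on every array, while the brightest probe of an array reached 20391 to 23140. Quantile normalization gives each rank a fixed value, so that Cxcl1, at rank 5 on all 3 PBS arrays, had the same log2 level of 13.46 on each of them. The normalized levels were 13.56, 13.56 and 13.36 at day 4 and 13.41, 13.56 and 13.46 at day 11. The changes were 0.04 ± 0.24 at day 4 (95% interval -0.49 to 0.57; limma adjusted p = 0.984) and 0.02 ± 0.24 at day 11 (95% interval -0.51 to 0.55; limma adjusted p = 0.985). With 75th percentile scaling, which does not tie a value to its rank, the change at day 4 was -0.0052.

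Markers of other cells were read beside Il1b and Ccl4, since both genes are known from myeloid cells. The monocyte and macrophage list had 18 genes with a probe. Its summed level, the sum of normalized linear intensities over those genes, was 4042, 4936 and 3408 at day 4, 6403, 7281 and 4739 at day 11, and 5229, 6120 and 5487 in PBS. As with Il1b and Ccl4, the day 4 sums lay below all PBS sums, and day 4 replicate 3, lowest in Il1b, was the lowest. Bright probes weigh most in such a sum. The highest mean of the list in every group was that of Laptm5, 10.48 at day 4, 11.12 at day 11 and 11.08 in PBS. The sum therefore does not stand for all genes of the list alike. Day 11 replicate 3, lowest of its group in Ccl4, also had the lowest sum of its group while its Il1b level was the highest of its group. Between 5 and 6 of the 18 markers were detected at day 4, 5 to 7 at day 11 and 7 to 10 in PBS. Those detected on no array at day 4 numbered 12, at day 11 10 and in PBS 7. The defining genes Itgam and Spi1 were detected on no array at all, and Csf1r, Adgre1, Mrc1 and Cd163 on PBS arrays alone. Other markers of the list differed the other way: Cd14 was detected on 2 day 4 arrays and 0 PBS arrays, the mean of Ctss was 8.48 at day 4 and 8.23 in PBS, and that of Aif1 was 10.43 at day 4 and 10.26 in PBS. Lyz2, a macrophage lysozyme, and Tyrobp, a myeloid signalling adaptor, were detected on all 9 arrays. The part of these cells in the Il1b and Ccl4 levels was not tested.

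The neutrophil and mast cell list, with 13 genes on the array, summed to 262 to 794 at day 4, 589 to 1071 at day 11 and 512 to 939 in PBS, and the groups overlapped. Of its defining genes, Elane, Mpo and Cpa3 were detected on no array, and S100a9, which monocytes also make, on all. S100a9 had a mean of 7.28 at day 4, 8.77 at day 11 and 8.60 in PBS, so its day 4 mean was the lowest, as for Il1b. Cxcr2 was detected on 1 day 4 array, 1 day 11 array and 2 PBS arrays, Kit on 1 array of each group, S100a8 on 1 day 4 array and 1 PBS array, and Camp on 1 day 4 array. T and NK cell markers, 9 genes, summed to 346 to 515 at day 4, 657 to 878 at day 11 and 677 to 724 in PBS, so their day 4 arrays too lay below all others. The FRC list, by contrast, summed to 37969 to 40533 at day 4, 35189 to 40783 at day 11 and 34082 to 38023 in PBS, with overlap between all groups, a narrow one between day 4 and PBS. Dendritic cell markers summed to 2010 to 3124 at day 4, 2558 to 3657 at day 11 and 2573 to 3080 in PBS, and B cell markers to 1088 to 1389, 979.9 to 1323 and 922 to 1955. Cr2 and Fcer2a had the highest means of the B cell list in every group and weigh most in its sums. Of the same list, Pax5 was detected on no array and Ms4a1 on 1 day 4 array. The sums of endothelial markers were 378 to 703 at day 4, 546 to 838 at day 11 and 340.1 to 748 in PBS, and those of the 3 pan-leukocyte markers 551 to 1443, 783 to 1714 and 943 to 1095.

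**Figure D3:**
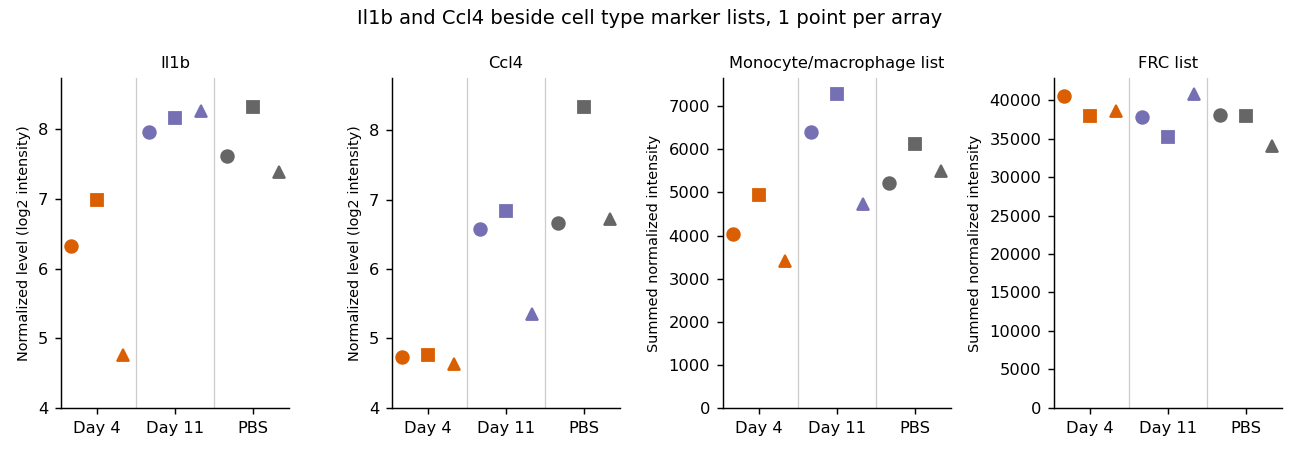
Il1b and Ccl4 levels (log2 intensity) and the summed normalized linear intensity of the monocyte and macrophage list and of the FRC list, 1 point per array, with day 4, day 11 and PBS from left to right; circles, squares and triangles are replicates 1, 2 and 3. The day 4 arrays are below all PBS arrays in the first 3 panels, while in the FRC panel they overlap with PBS.

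The genes whose levels followed Il1b most closely over the 9 arrays, among 8819 tested genes, were Lyz2 (Pearson r 0.94), Sox12, a transcription factor (0.92), Prrx1, a mesenchymal transcription factor (0.91), Cul1, a ubiquitin ligase scaffold (0.91), and 4933434E20Rik (0.90). Lyz2 had log2 levels of 9.22, 9.43 and 8.37 at day 4, against a lowest level of 9.85 and a highest of 10.34 at day 11, and a lowest of 9.48 in PBS. It thus shared with Il1b the separation of day 4 from the other groups and the lowest value on day 4 replicate 3. For Ccl2 the closest genes were Fcho2, an endocytosis factor (0.94), Mmp16, a membrane-bound matrix protease (0.92), Lamtor3 (0.90), Gem, a small GTPase (0.90), and Col6a4, a collagen chain (0.90). These are the highest of many correlations over 9 points that share 3 groups, and they are given as a description. Among the members themselves, the highest r were Il1b and Ccl4 at 0.70, Ccl2 and Ccl7 at 0.60 and Ccl9 and Ccl11 at 0.78 over the same arrays. The most negative were Ccl4 and Ccl7 at -0.64, Ccl2 and Ccl4 at -0.53 and Il1r1 and Cxcl1 at -0.52.

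Other genes of the pathway were summarised by list, with 1 probe a gene. No gene of any list passed the threshold in either direction in any comparison (limma). The median change over all 8819 tested genes was 0.04 at day 4, 0.05 at day 11 and 0.02 from day 4 to day 11, with 53.8%, 54.1% and 51.5% of genes above 0.

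Of the other IL-1 ligands and processing genes, 5 of the 10 with a probe were tested: Casp1, Casp4, Gsdmd, Il33 and Pycard. Their median change was 0.26 at day 4, with 3 of 5 above 0, and -0.05 at day 11, with 2 of 5 above 0. The lowest p at day 4 belonged to the inflammasome adaptor Pycard (-0.61 ± 0.41; limma adjusted p = 0.765), whose other probe gave 0.91, and to the pore-forming Gsdmd (-0.39 ± 0.31; limma adjusted p = 0.818). At day 11 it belonged to the alarmin Il33, which FRCs are known to make (0.31 ± 0.27; limma adjusted p = 0.704), and to Casp4 (-0.11 ± 0.28; limma adjusted p = 0.912), whose other probes gave -0.29 and 0.51.

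Receptors and signalling genes had 13 of 16 tested, with a median of 0.07 at day 4 and 0.09 at day 11 and 8 of 13 above 0 both times. Traf6, the ubiquitin ligase downstream of the receptor, had 9.16, 8.53 and 9.10 at day 4, 8.49, 8.61 and 8.55 at day 11, and 7.59, 7.87 and 8.51 in PBS. The day 4 arrays were above all PBS arrays, though by little over PBS replicate 3. Its change was 0.94 ± 0.32 at day 4 (limma adjusted p = 0.502) and 0.56 ± 0.32 at day 11 (limma adjusted p = 0.554). Of its other probes, 1 had the opposite sign, at -0.59 at day 4, and 1 the same sign, at 0.69. The accessory receptor chain Il1rap had 0.96 ± 0.52 at day 4 (limma adjusted p = 0.696), near background detected on 2 day 4 arrays and 1 PBS array. Irak1, a kinase of the receptor complex, had 0.52 ± 0.28 at day 11 (limma adjusted p = 0.529), beside 0.57 and 0.68 on further probes.

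Among other inflammatory chemokines, 8 of 19 were tested, with a median of -0.13 at day 4 (3 of 8 above 0) and 0.11 at day 11 (5 of 8 above 0). The platelet chemokine Pf4 was detected on 3 day 4 arrays, 1 day 11 array and no PBS array. By the same kind of bound its mean was 1.06-fold higher at day 4 than in PBS, and its day 11 level was within the limit that PBS allows. The 1.06-fold figure rests on day 4 replicate 2, at 6.67 beside 5.79 and 5.87 on the other day 4 arrays. It does not allow for the spread between arrays and is no firm minimum. Pf4 met the detection filter without any PBS array. Its normalized change at day 4, taken against undetected PBS signals, was 1.20 (limma adjusted p = 0.501). Cx3cl1, a membrane-bound chemokine, had -0.57 ± 0.35 at day 4 (limma adjusted p = 0.736). It was detected on 1 day 4 array and 2 PBS arrays, with a day 4 mean of 5.49, so this size rests on signals near background. The interferon-induced Cxcl9 had 0.31 ± 0.37 at day 11 (limma adjusted p = 0.802).

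Receptors for inflammatory chemokines sit mainly on leukocytes, apart from the scavenging receptors Ackr1 and Ackr2 of endothelium. Of 12 with a probe, 5 were tested, with 0 of 5 changes above 0 at day 4, 2 of 5 at day 11 and 5 of 5 from day 4 to day 11. The medians, -1.02, -0.25 and 0.77 in that order, are set by signals near background. The gene at the median, Cxcr2, was detected on 1 array at day 4, and the day 4 means of Cxcr2 (5.22), Ackr2 (5.35) and Cxcr6 (5.54) lay below the lowest signal detected on any day 4 array, 5.57. The sizes of the differences of Cxcr2, Ackr2 and Cxcr6 are therefore not measured ones. Ccr2, the receptor for Ccl2 and Ccl7 on monocytes, had 5.61, 5.97 and 6.69 at day 4, 6.44, 6.68 and 6.15 at day 11, and 6.93, 7.81 and 6.59 in PBS. The groups overlapped through day 4 replicate 3 and PBS replicate 3. Its change was -1.02 ± 0.39 at day 4 (limma adjusted p = 0.566) and -0.68 ± 0.39 at day 11 (limma adjusted p = 0.566), where it was detected on 1 of 3 arrays and the size rests on signals near background. Cxcr6, a receptor of T and NK cells, had -1.19 ± 0.56 at day 4 (limma adjusted p = 0.648), with 1 day 4 array and 2 PBS arrays detected. Ackr1 had 0.69 ± 0.46 at day 11 (limma adjusted p = 0.618).

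The response genes of IL-1 and NF-kB had 24 of 29 tested, with a median of -0.04 at day 4 (11 of 24 above 0) and -0.08 at day 11 (10 of 24 above 0). The adhesion molecule Vcam1 had 11.27, 11.04 and 10.96 at day 4, 10.95, 10.89 and 10.88 at day 11, and 10.47, 10.45 and 10.63 in PBS, so every tumour array was above every PBS array. Its change at day 4 was 0.57 ± 0.24 (limma adjusted p = 0.610), beside -0.05, 0.20 and 0.01 on further probes. The NF-kB subunit gene Rel had -0.83 ± 0.37 at day 4 (limma adjusted p = 0.632). At day 11 the lowest p belonged to the NF-kB subunit gene Rela (-0.65 ± 0.25; limma adjusted p = 0.417) and to Cebpb, a transcription factor of inflammatory genes (-0.60 ± 0.26; limma adjusted p = 0.456). Rela had 10.33, 10.51 and 10.58 at day 4, 9.92, 10.30 and 10.34 at day 11, and 10.87, 10.75 and 10.88 in PBS. All 6 tumour arrays were below all PBS arrays. Cebpb had 9.60, 9.52 and 9.56 at day 4, 8.32, 8.62 and 8.92 at day 11, and 9.26, 9.20 and 9.20 in PBS. Its day 4 arrays lay wholly above PBS and its day 11 arrays wholly below it. Vcam1, Rela and Cebpb, like Traf6 above, were picked by their p in these data, so their separations add no support. Of all tested probes, 6.04% lay wholly above PBS at day 4 and 7.66% wholly below it at day 11. Il6 and Ptgs2, textbook targets of IL-1 in fibroblasts, had changes of 0.31 and 0.09 at day 4 and 0.21 and 0.03 at day 11. These 2 genes were picked after their values were seen, as was the acute-phase gene Saa3, which had the highest change of the list at day 11, 1.41 (limma adjusted p = 0.510).

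**Figure D4:**
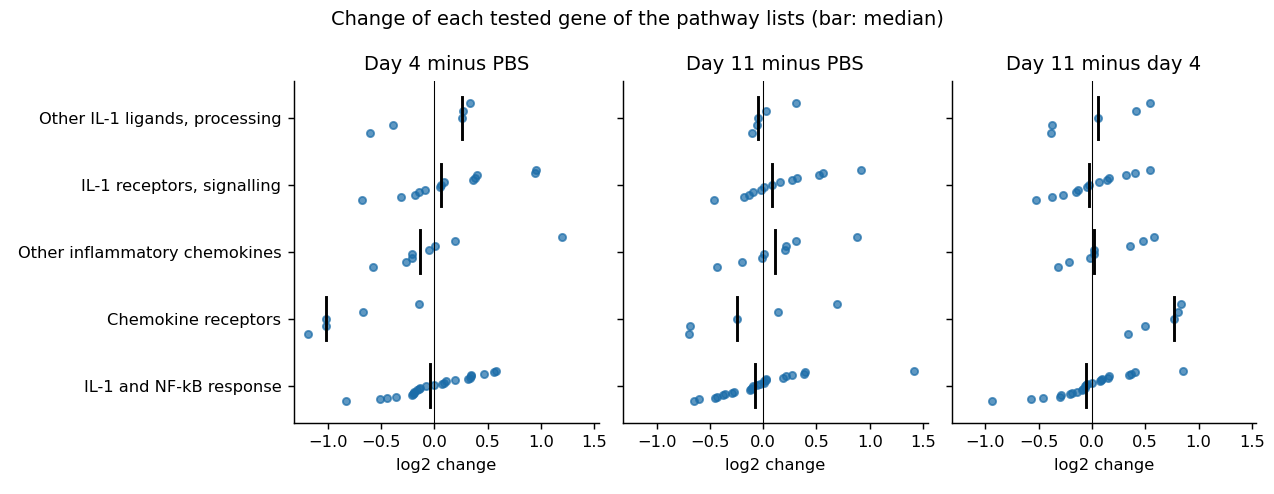
Log2 change of each tested gene in the 5 pathway lists (rows) for the 3 comparisons (panels), 1 point per gene, with the list median as a vertical bar. The 5 chemokine receptors lie below 0 for day 4 minus PBS and above 0 for day 11 minus day 4. The sizes for Cxcr2, Ackr2 and Cxcr6, and those for Ccr2 at day 11, rest on signals near background. The medians of the other 4 lists lie between -0.13 and 0.26.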

How the data were processed

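RNA of each animal was amplified and hybridised to 1 Illumina mouse bead array. In the deposited raw table each probe had a linear intensity per array, not yet normalized judging by the array medians, and a detection p-value, per the file headers. The submitters' processing notes name lumi. The authors' processed values were intensities as well, with 1 shared distribution across arrays, and were used as an alternative. Symbols came from the platform annotation: 1 symbol stood beside 34885 probes, several beside 18, and 10378 probes were left unnamed. RefSeq (GRCm38.p6) names were matched for 34807.

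From the raw intensities, neqc of limma 3.58.1 (R 4.3.3) corrected the background through the detection p-values, added an offset of 16, quantile normalized and took log2. Probes detected at p under 0.01 on at least 3 arrays were tested with lmFit and eBayes over all 9 arrays (6 residual degrees of freedom), with Benjamini-Hochberg adjustment over all 16577 tested probes at 0.05. The number of arrays limits the precision. A gene was represented by its tested probe with the highest mean. Named pathway genes were the 2 with the lowest p of each list at day 4 and at day 11, apart from those said to be picked later, and the 5 genes most correlated with Il1b and with Ccl2. Members and lists were chosen with earlier results of these data known. No 2 arrays held identical values (0 of 36 pairs). The fit was tested on simulated log2 values of the tested probes. They were drawn without a background or normalization step, so that test does not bear on signals near background. Sequences are from RefSeq.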

Additional observations from a re-analysis of the deposited data

How the results depend on the processing

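No member gene's change passed the threshold in any comparison under any of the 18 alternatives (limma). The lowest adjusted p of a member was 0.157, for Ccl4 at day 4 with 75th percentile scaling. Of 432 recomputed member changes, 406 kept their sign, among them every one of Il1b and Ccl4. Some of these signs could not change. Settings that altered only the detection filter or the model left the normalized values as they were, so their changes equal the main ones. Averaging over probes likewise leaves genes with 1 tested probe, such as Il1b and Ccl4, unchanged. Such kept signs add no support. Nor do those of Ccl4 against day 4, which rest on background signals there. At day 4 the Il1b change ran from -2.22 to -1.09 and that of Ccl4 from -2.84 to -1.52, the values nearest 0 with no background correction, where Il1b from day 4 to day 11 was 1.35 and Ccl4 0.93. The 26 that changed sign were small. With 75th percentile scaling these were Cxcl1 at day 4 (-0.0052) and from day 4 to day 11 (0.0801), Ccl11 at day 11 (-0.0036) and Ccl7 from day 4 to day 11 (-0.0541). With the mean of a gene's probes they were Il1r1 (0.0598) and Ccl11 (0.0142) at day 4 and Ccl7 from day 4 to day 11 (-0.162). The other 19 came from leaving out 1 array. At day 4 against PBS the ranges over the arrays left out were -0.349 to 0.294 for Ccl9, -0.221 to 0.120 for Ccl11, -0.134 to 0.120 for Il1r1 and -0.0093 to 0.110 for Cxcl1. At day 11 against PBS they were -0.135 to 0.0853 for Ccl2, -0.389 to 0.254 for Ccl9, -0.0753 to 0.262 for Ccl11 and -0.0281 to 0.0577 for Cxcl1. From day 4 to day 11 they were -0.237 to 0.149 for Ccl9, -0.0232 to 0.113 for Ccl7 and -0.0897 to 0.0185 for Cxcl1.

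Over all probes, 1 passed at day 11 against PBS and 1 from day 4 to day 11. Both counts were 0 with no detection filter, with only the groups compared and with the replicate block, and 22 and 5 with an intensity trend and robust prior. Without single arrays they ranged from 0 to 0 and from 0 to 2. The cause was not tested. The replicate block changed no call of a member, with Il1b at day 4 at a limma adjusted p of 0.498; same-numbered arrays did not deviate together (r from -0.046 to 0.063 over 9 pairs). Signal over background limits Il1b and Ccl4, whose day 4 means lie near or below the lowest detected signal.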
